A study of Arabidopsis thaliana with 27 samples.

Results

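The 131 genes described here are every row of the expression files whose locus starts between bases 3230000 and 3520000 of chromosome 2 of Arabidopsis thaliana (TAIR10), out of 33557 rows in all. This stretch beside the centromere is a nuclear copy of mitochondrial DNA, and its genes were compared with the 146 rows of the mitochondrial chromosome itself (identifiers starting with ATMG). RNA came from whole Col-0 wild-type seedlings, and libraries were made from polyadenylated RNA. Per the labels, plants grew at 17 °C under long days until day 10 and were moved soon after dawn, with 27 libraries in 3 experiments and 21 groups. The 17-to-27 experiment had 13 libraries, 2 each for seedlings kept at 17 °C or moved to 27 °C at 15 min, 1 h and 4 h, and 1 at 0 min. The 17-to-37 experiment had 7 libraries, 1 each for seedlings kept at 17 °C or moved to 37 °C at the same times and 1 at 0 min, and the 22-to-27 experiment had the same form, with growth at 22 °C not described. No group differed in genotype. The labels do not state whether libraries of 1 group were grown separately, and the p-values may then reflect technical spread only.

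Plant mitochondria keep a small genome that encodes part of the respiratory chain and of the ATP synthase, some ribosomal proteins, proteins that mature cytochrome c, and transfer RNAs. Pieces of this genome have moved into the nucleus many times in plant evolution, and the copy beside the centromere of Arabidopsis chromosome 2 is a well known example of recent origin. In plant mitochondria polyadenylation marks a transcript for decay, and RNA editing changes selected C bases to U.

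The insertion was still nearly identical in sequence to the mitochondrial genome. Of the 131 members, 129 matched the RefSeq mitochondrial genome, 128 of them over their whole length, at 97.52 to 100% identity (median 100%). The best match was without a difference in 78. In AT2G07747 and AT2G07749, among these, it spanned 579 of 603 and 2115 of 2124 bases. The lowest identity, in AT2G07703, came from 1 gap with 0 mismatches. Over 123345 positions compared there were 86 substitutions, or 0.697 per kb, and 50 of these (58.1%) had C in the mitochondrial genome and T on chromosome 2. Of the matching members, 51 held at least 1 window of 100 bases of their own, absent from the mitochondrial genome and found once in the nuclear and chloroplast genomes, 55 held none, and 23 were shorter than 100 bases. In 54 of the 55 every such window also occurred in the mitochondrial genome, so that reads of that length cannot be told from mitochondrial reads by sequence, while AT2G07773 shares a differing base with AT2G07681. The sources used here do not give how reads with several matches were counted, and values of single members are uncertain. Of the 131 rows, 2 had no mitochondrial match: AT2G07680 (ABCC13, an ABC transporter of the ABCC subfamily) at chr2:3514745-3522491, and the pseudogene AT2G07744, at 0 counts in every library.

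The following stretches show how little separates the copies that the results below turn on. All are written 5′ to 3′ in the direction of the gene, from TAIR10.1 as held by RefSeq, whose chromosome 2 coordinates equal those of the files for these stretches. The first is the start of the AT2G07707 copy of atp8, a subunit of the ATP synthase (chr2:3386292-3386411, plus strand), which is the same in the mitochondrion (bases 247373 to 247492, minus strand). Its capitals mark the start codon.
AT2G07707 atp8 start, both genomes: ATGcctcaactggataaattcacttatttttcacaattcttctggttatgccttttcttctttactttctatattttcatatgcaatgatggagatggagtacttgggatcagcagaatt
Capitals in the other stretches mark bases that differ. They are from AT2G07715, a copy of rpl2 for a ribosomal protein (chr2:3411639-3411759, plus strand; mitochondrial bases 222031 to 222151, minus strand), from AT2G07698, a copy of atp1 for the alpha subunit of the ATP synthase (chr2:3361868-3361988, plus strand; mitochondrial bases 69138 to 69258, minus strand), and from AT2G07711, a copy of part of nad5 of complex I (chr2:3397666-3397786, minus strand; mitochondrial bases 236000 to 236120, plus strand).
AT2G07715 rpl2, chromosome 2: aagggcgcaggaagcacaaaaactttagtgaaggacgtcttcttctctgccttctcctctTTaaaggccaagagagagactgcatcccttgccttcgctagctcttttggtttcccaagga
rpl2, mitochondrion: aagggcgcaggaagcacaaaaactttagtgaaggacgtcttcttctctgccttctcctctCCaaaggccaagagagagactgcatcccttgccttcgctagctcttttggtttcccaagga
AT2G07698 atp1, chromosome 2: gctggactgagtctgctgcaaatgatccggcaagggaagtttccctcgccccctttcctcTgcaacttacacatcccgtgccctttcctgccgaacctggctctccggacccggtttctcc
atp1, mitochondrion: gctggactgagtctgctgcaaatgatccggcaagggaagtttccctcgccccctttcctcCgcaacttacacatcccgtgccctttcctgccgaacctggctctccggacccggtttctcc
AT2G07711 nad5, chromosome 2: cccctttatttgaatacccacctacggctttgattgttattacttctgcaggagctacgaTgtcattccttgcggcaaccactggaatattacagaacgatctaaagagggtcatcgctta
nad5, mitochondrion: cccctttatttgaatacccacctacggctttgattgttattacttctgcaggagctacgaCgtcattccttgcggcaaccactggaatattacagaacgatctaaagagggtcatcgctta
Each of the last 3 stretches had T on chromosome 2 where the mitochondrion had C. The label atp1 names the mitochondrial gene that the whole row AT2G07698 overlaps. This row has 2654 bases, against 1524 in its partner ATMG01190. Whether the stretch shown lies within atp1 itself was not determined, so its differing base is not given as a difference in atp1.

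Total counts per library were 6.40 to 30.74 M in the 17-to-27 experiment, 15.30 to 22.48 M in the 17-to-37 experiment and 5.79 to 10.69 M in the 22-to-27 experiment. At these depths 8 of the 131 members had 0 counts in all 27 libraries, 20 had under 10 counts over all of them, and 15 had counts in every library. The deposited TPM values (transcript abundance scaled to gene length and to a fixed sum per library) did not always follow the counts: 19 members with counts were listed at 0 TPM throughout, the longest of them 114 bases and 18 of them tRNA copies. The reverse was seen in 2 members. AT2G07830, a row of 123 bases inside AT2G07827 on the other strand, had 0 counts in every library but a TPM above 0 in 3 of them, up to 77.0, and AT2G07812 had 0 counts but a TPM of up to 3.13 in 5 libraries.

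Transcripts assigned to the insertion were scarce in seedlings kept at 17 °C and abundant at 37 °C. In the 17-to-37 experiment the 129 matching members together took 39.59, 41.21 and 42.29 ppm (counts per 1 M counts of the library) at 15 min, 1 h and 4 h at 17 °C, and 44.83 at 0 min. At 37 °C they took 722.8 ppm at 15 min (95% Wilson interval 711.3 to 734.5), 1025 at 1 h (1009 to 1041) and 1400 at 4 h (1384 to 1417). These intervals cover counting error only. Every 37 °C library was far above every 17 °C library, by 18.3-fold at 15 min, 24.9-fold at 1 h and 33.1-fold at 4 h, each from 1 library per temperature. The summed TPM moved in the same direction, from 34.1, 64.8 and 39.7 to 858, 1254 and 1708. More of the insertion was covered as well: 117 to 119 of the 129 matching rows had counts at 37 °C, against 66 to 71 at 17 °C.

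Summed, the mitochondrial rows were also higher at 37 °C, by a smaller factor. Their sum was 292.4, 298.6 and 411.9 ppm at 17 °C and 1523, 2649 and 4480 at 37 °C, which is 5.21-, 8.87- and 10.9-fold. The members made up 9.31 to 12.13% of member and mitochondrial counts together at 17 °C, and 32.18, 27.89 and 23.82% at 37 °C, so their share was highest at 15 min. A pair of mitochondrial rows, ATMG00020 and ATMG01390, held 78.6% of all mitochondrial counts, and rose by 2.59 ± 0.32 (SE) and 3.31 ± 0.29 on the log2 scale in the edgeR test described below. Row by row the smaller factor was not seen. The median log2 change was 5.85 over the 101 members tested and 5.86 over the 98 mitochondrial rows tested. These include members with 0 counts at 17 °C. Among rows with at least 10 counts in each 17 °C library the medians were 4.22 and 4.53. Summed, the nuclear genes that flank the insertion did not follow it: the 87 rows within the neighbouring stretches summed to 178.3 to 181.5 ppm at 37 °C and 181.9 to 188.5 at 17 °C. Only 4 of these 87 rows passed the low-count filter of the edgeR test, with 1 called higher and 1 lower at 37 °C. Chloroplast rows took 0.581, 0.492 and 0.675% of counts at 37 °C and 0.372, 0.336 and 0.506% at 17 °C.

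**Figure D1:**
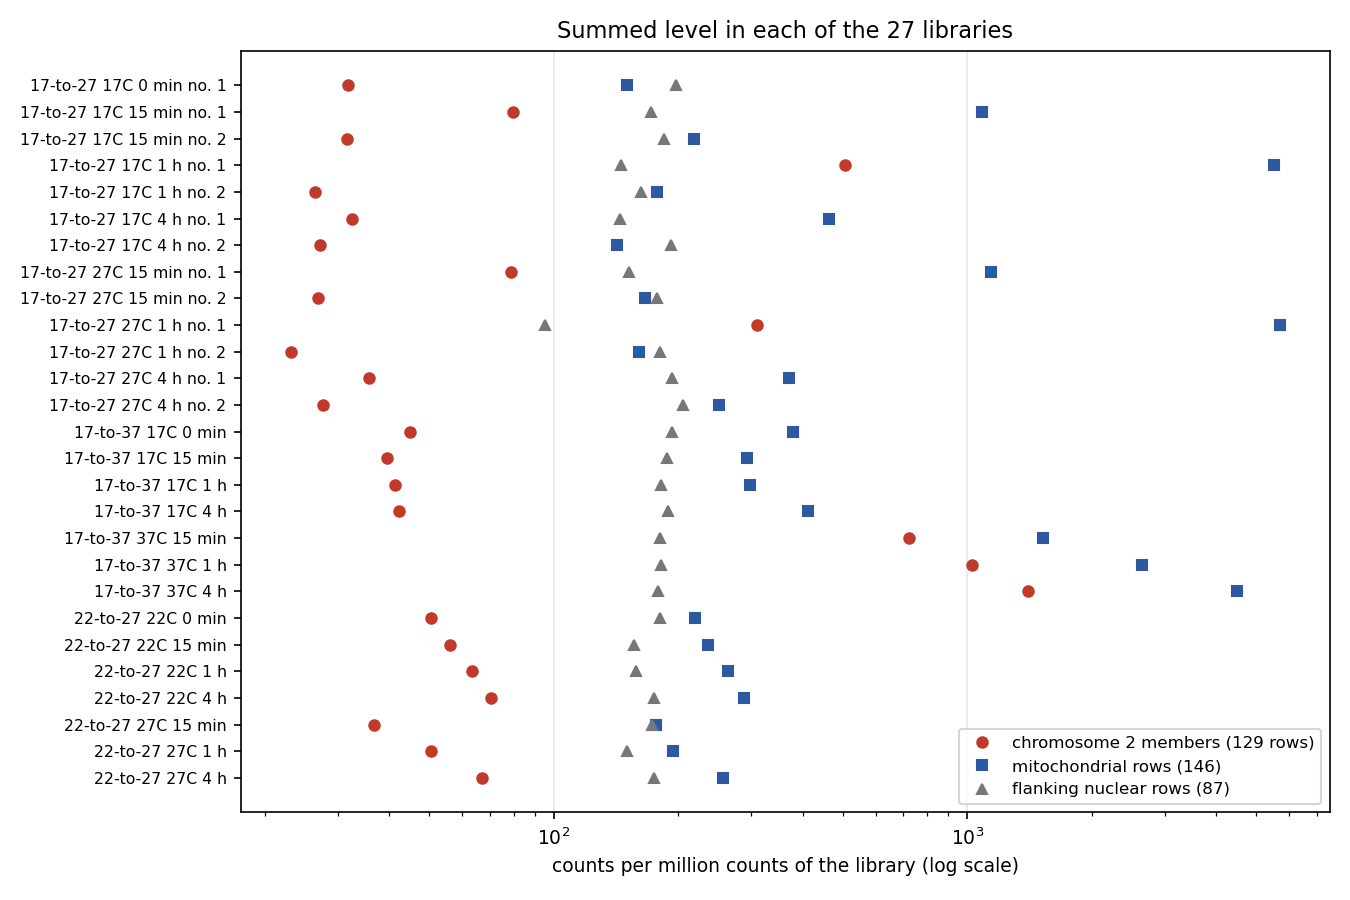
Summed level in ppm of the library's counts (log axis) in each of the 27 libraries, for the sum of the 129 matching members (red circles), the 146 mitochondrial rows (blue squares) and the 87 flanking nuclear rows (grey triangles). Members and mitochondrial rows were high together in the 3 libraries at 37 °C and in the 2 libraries numbered 1 at 1 h of the 17-to-27 experiment, while the flanking rows were at 95.19 to 205.8 ppm over all 27.

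The makeup of the seedling RNA was read from a shoot and a root list of marker genes. All 10 shoot markers and all 8 root markers had counts in every library. In the 17-to-37 experiment the summed root markers were at 72.8 to 82.6 CPM (as ppm, but with TMM-scaled library totals) at 37 °C and 112 to 131 at 17 °C, and the summed shoot markers at 2.47 to 2.94% and 1.87 to 2.40% of scaled counts. The part of these shifts in the members' levels was not tested. In RNA from whole seedlings, fewer cells of a type and less RNA per cell cannot be told apart.

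Member by member, 37 °C was tested against 17 °C over the 3 times with edgeR's quasi-likelihood test, fitted on all 21077 genes that passed a filter on low counts. Of the 131 members 101 passed that filter, and 100 of them were called higher and 0 lower at an adjusted p under 0.05, beside 9.91% of all tested genes called higher and 11.3% called lower. Many passed the filter only through the 37 °C libraries and so had to differ: 14 had no count at all at 17 °C and 30 had 1 to 3 counts there. A count that does not depend on the 37 °C libraries is that of matching members with at least 10 counts in each of the 3 libraries at 17 °C. There were 9 of these, copies of atp9, atp1, nad7, nad5, rpl2, nad4, ccmFC and cob and the unnamed row AT2G07811, and all 9 rose, by 2.88 to 5.79 on the log2 scale (median 4.22), beside 8.24% of the 19871 genes with the same coverage, whose median was -0.02. By the same measure 10 of 10 mitochondrial rows rose (median 4.53), 19 of 75 chloroplast rows (median 0.68) and 1 of 4 flanking rows (median 0.10). Of the 101 members that passed the filter, 100 had all 3 libraries at 37 °C above all 3 at 17 °C, beside 24.5% of all tested genes. Over all rows, tested or not, this held for 114 of the 131 members, 128 of the 146 mitochondrial rows and 51 of the 133 chloroplast rows. No share over all rows of the files was computed beside these counts, so they do not set the members apart. They include rows with 0 counts at 17 °C, such as AT2G07759, with 1 count in each 37 °C library. The fit had 1 library per temperature and time and 2 residual degrees of freedom, and with the 1 h libraries left out 56 members were called in place of 100.

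Copies of ATP synthase genes included the member with the most counts in the hot seedlings. AT2G07698, the atp1 copy (chr2:3361474-3364127, plus strand), had 59, 63 and 53 counts at 15 min, 1 h and 4 h at 17 °C and 1721, 2162 and 4421 at 37 °C. The groups were far apart and the 37 °C counts climbed with time, and the gene rose by 5.79 ± 0.27 on the log2 scale (edgeR, adjusted p = 0.000886). It alone held 14.1% of the members' counts at 37 °C. AT2G07671, a copy of atp9 for the membrane ring subunit c (chr2:3251665-3252113, minus strand), had the highest mean TPM of all members over the 27 libraries, at 4.80, 10.9 and 6.14 TPM at 17 °C and 61.4, 80.6 and 183 at 37 °C. The temperatures did not overlap, and the atp9 copy rose by 4.22 ± 0.42 on the log2 scale of counts (edgeR, adjusted p = 0.00658). AT2G07707, the atp8 copy printed above, went from 9, 6 and 6 counts to 199, 233 and 367 and rose by 5.52 ± 0.31 (edgeR, adjusted p = 0.00114). With the atp6 copies AT2G07741 and AT2G07699, all 5 ATP synthase copies passed the filter and rose, by 4.22 to 5.79.

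Copies of complex I genes, which encode parts of the NADH dehydrogenase at the head of the respiratory chain, were the largest group with a protein product and held 1124 of the 2297 counts of matching members at 17 °C. All 13 passed the filter and rose, the 11 with more than 3 counts at 17 °C by 2.86 to 8.44 on the log2 scale. AT2G07709, a copy of part of nad7 chosen for description after its values were seen, had 243, 177 and 153 counts at 17 °C and 1387, 1412 and 2346 at 37 °C, a log2 change of 3.49 ± 0.25 (edgeR, adjusted p = 0.00248). AT2G07731, the nad6 copy, had almost none at 17 °C, with 3, 2 and 0 counts, and 152, 550 and 956 at 37 °C. Its log2 change of 8.44 ± 0.66 (edgeR, adjusted p = 0.00364) was the largest among members with more than 3 counts at 17 °C. AT2G07717 (nad4) rose by 4.74 ± 0.28 from 198 counts over the 3 libraries at 17 °C, and AT2G07711 (nad5) by 3.12 ± 0.29 from 190. Whether the copies differed from each other was not tested. AT2G07708, another stretch of nad7, went from 14, 10 and 9 counts to 312, 304 and 588, a rise of 5.45 ± 0.29.

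Complex III and complex IV are each represented by 1 copy. AT2G07727, the copy of cob for cytochrome b, had 17, 21 and 13 counts at 17 °C and 112, 112 and 309 at 37 °C. Its log2 change was 3.55 ± 0.39 (edgeR, adjusted p = 0.00787), and that of AT2G07687, the copy of cox3 for a core subunit of cytochrome c oxidase, 3.86 ± 0.66 (adjusted p = 0.0224). Of 8 copies of genes for cytochrome c maturation, which attach haem to that carrier, 6 passed the filter and rose, and the 4 of these with more than 3 counts at 17 °C did so by 4.55 to 6.69. AT2G07783, the ccmFN1 copy, went from 1, 3 and 3 counts to 116, 173 and 339, a rise of 6.69 ± 0.29 (edgeR, adjusted p = 0.000627).

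The 6 ribosomal protein copies all passed the filter and rose, by 2.88 to 6.17 on the log2 scale. AT2G07715, the rpl2 copy and also chosen after its values were seen, had the smallest change, from 129, 81 and 81 counts at 17 °C to 426, 489 and 811 at 37 °C, 2.88 ± 0.30 (edgeR, adjusted p = 0.00677). AT2G07726, the rps14 copy, was near the limit of detection at 17 °C, with 2, 1 and 2 counts, and reached 21, 32 and 85 at 37 °C, a rise of 4.86 ± 0.49 (adjusted p = 0.006). The copy of mttB, a membrane transport protein, had 0 counts at 17 °C and 91 at 37 °C, so that its 8.04 in the fit stands for a log2 change of at least 5.27 against a floor of 3 counts over the 17 °C libraries. The 21 copies of tRNA genes alone, all too short or too scarce for the filter, had 3 counts together at 17 °C and 109 at 37 °C.

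Of the 131 members, 67 overlap no named mitochondrial gene, and these rows took a larger part of the counts in hot than in cool seedlings. Not all are spacer, since some match an annotated mitochondrial row, such as AT2G07719 with ATMG00610 and AT2G07695 with ATMG01280. The 67 rows had 305 of the 2297 members' counts at 17 °C and 18786 of 59043 at 37 °C. Among the 23 tested ones with more than 3 counts at 17 °C, log2 changes ran from 2.47 to 8.30. AT2G07677, identical to mitochondrial sequence over its 2009 bases, had 5, 1 and 2 counts at 17 °C and 797, 629 and 623 at 37 °C, a rise of 8.30 ± 0.33 (edgeR, adjusted p = 0.000485). AT2G07719 (chr2:3432795-3433495, minus strand) went from 10, 6 and 3 counts to 468, 585 and 779, a rise of 6.88 ± 0.38 (edgeR, adjusted p = 0.00119). In both the 15 min library at 37 °C was already far above all libraries at 17 °C. AT2G07811 had enough counts at 17 °C for a firm comparison, 21, 18 and 17 against 447, 410 and 655 at 37 °C, and rose by 5.06 ± 0.19 (adjusted p = 0.00043). AT2G07798, AT2G07688, AT2G07787, AT2G07599 and AT2G07674, also without a named gene, rose by 6.22 to 6.68. AT2G07738, with 0 counts at 17 °C and 162 at 37 °C, had the highest fitted value, 8.92, which stands for at least 6.10, and AT2G07663 the lowest, 2.47 ± 0.63. Both were named after their values were seen.

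A further 6 members overlap a tRNA gene within a longer row. All 6 passed the filter and rose, the 5 with more than 3 counts at 17 °C by 4.85 to 7.14 on the log2 scale. AT2G07739 overlaps a copy of trnC and had 3, 4 and 6 counts at 17 °C and 498, 345 and 390 at 37 °C. Its log2 change was 6.85 ± 0.33 (edgeR, adjusted p = 0.000832), and, unlike the atp1 copy, it was no higher at 4 h than at 15 min. AT2G07774, which overlaps trnS, rose by 4.85 ± 0.36 from 21 counts. AT2G07795, which also overlaps trnS, had 1 count at 17 °C and 353 at 37 °C, a ratio per library total of 352 with an exact 95% counting interval of 62.8 to 13900. Over all members 104 had a higher CPM at 4 h than at 15 min at 37 °C and 83 rose at both steps, with 1 library per time and so no replicate check. The 104 include rows with 1 count at 37 °C, such as AT2G07743. No share over all genes was computed beside these counts, so they do not set the members apart from other genes.

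**Figure D2:**
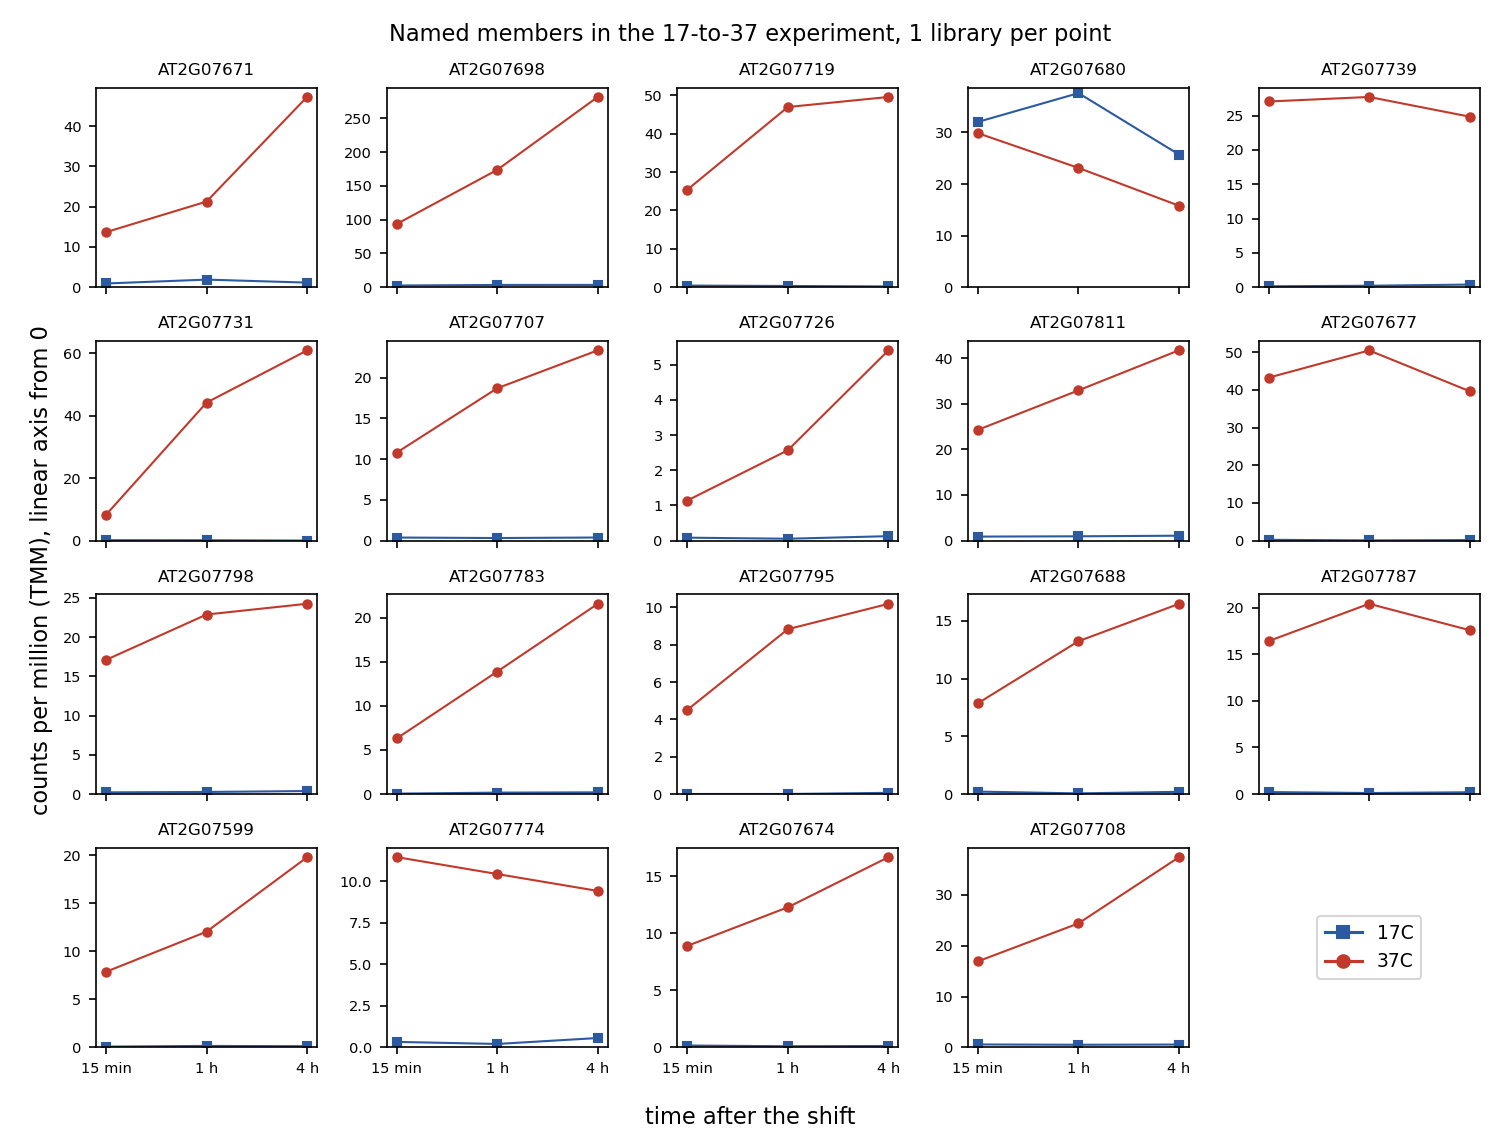
CPM (TMM-scaled, linear axes from 0) of 19 named members at 15 min, 1 h and 4 h in seedlings kept at 17 °C (blue squares) or moved to 37 °C (red circles), 1 library per point. The 37 °C line lies above the 17 °C line at each time in every panel but that of AT2G07680, which has no mitochondrial match.

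The member without mitochondrial sequence behaved differently. AT2G07680 (ABCC13) lies at the edge of the window and had 32.1, 37.6 and 25.7 CPM at 17 °C and 29.9, 23.1 and 15.8 at 37 °C, with the 37 °C library lower at each time. The groups overlapped, and its log2 change of -0.50 ± 0.17 missed the threshold (edgeR, adjusted p = 0.0916). In the rest of the insertion, both rows with and rows without sequence of their own were higher at 37 °C. Summed over all members of a class, tested or not, counts per kilobase went from 10.5 at 17 °C to 447 at 37 °C in the 55 without a window of their own, and from 22.4 to 484 in the 51 with such windows. Whether these changes differed was not tested. The counts are those of whole rows, most of whose sequence is shared with the mitochondrion. Own windows were set by genomic DNA alone, and edited mitochondrial transcripts, with U for C, were not compared with them. The class with own windows therefore does not tell nuclear from mitochondrial transcripts.

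**Figure D3:**
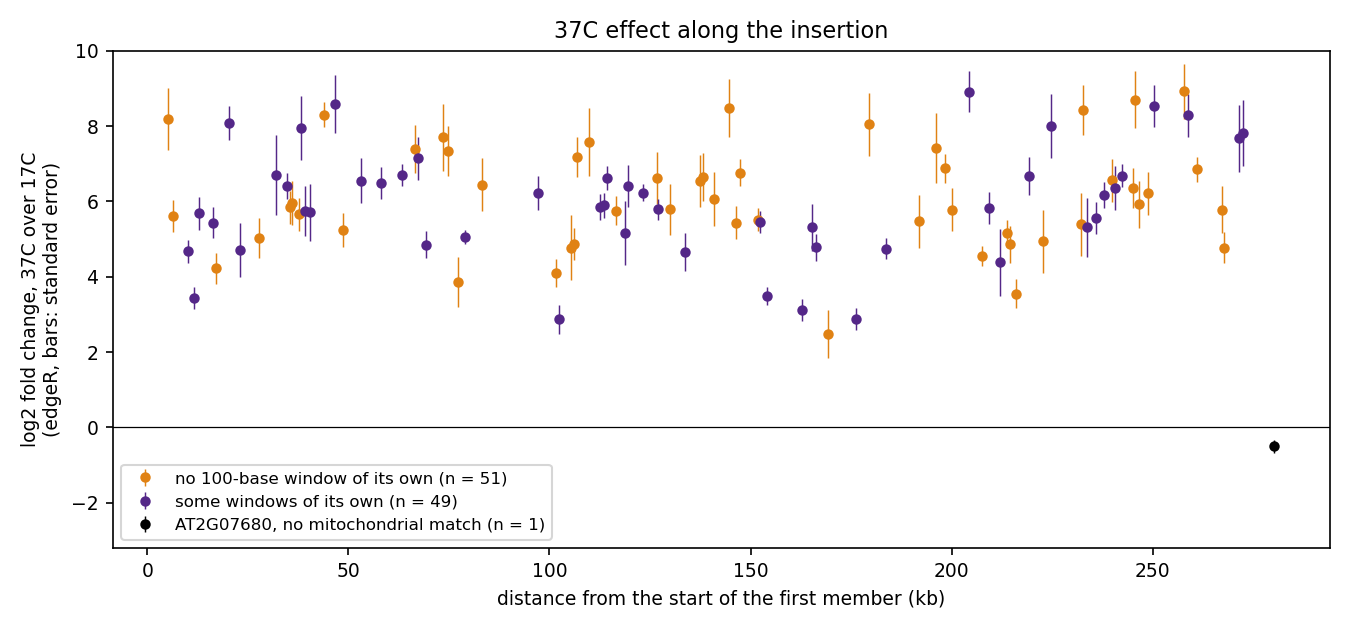
Log2 fold change of 37 °C over 17 °C (edgeR, bars are standard errors) of the 101 tested members against distance from the start of the first member, in kb. Rows without a 100-base window of their own (orange, n = 51) and rows with some (purple, n = 49) both occur along the whole insertion at 2.47 to 8.92 (fitted values, 14 of them from rows with 0 counts at 17 °C and so no measure of size), and the black point at the right is AT2G07680 at -0.50.

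Within pairs of a member and its annotated mitochondrial row, identical sequences of equal length took equal counts in some cases and not in others. Of the 131 members 54 had such a partner, and 13 of these pairs were identical and of equal length. At 37 °C the 95% interval of the member's share held 50% in 8 of the 13, lay above it in 3 and below it in 2. AT2G07707 and ATMG00480, both 477 bases and identical, had 799 and 802 counts at 37 °C, so that the member held 49.91% (95% Wilson interval 47.46 to 52.35%). At 17 °C they had 21 and 12 counts, 63.64% with an interval of 46.62 to 77.81%. AT2G07675 with ATMG00980 and AT2G07809 with ATMG00600 stood at 49.77 and 49.57% at 37 °C. The uneven pairs were AT2G07701 at 72.11%, AT2G07702 at 82.98%, AT2G07826 at 40.36%, AT2G07812 with 0 of 54 counts, and AT2G07739. The last took 79.60% of its pair with ATMG00370 at 37 °C (77.52 to 81.53%), 86.67% at 17 °C and 56.10% in the 2 libraries numbered 1 at 1 h. AT2G07812 (chr2:3249077-3249394) overlaps AT2G07749 (chr2:3247234-3249357) on the other strand. AT2G07666 and AT2G07670 match the same mitochondrial bases as AT2G07701 and AT2G07702, so 50% is not the plain expectation in these pairs. Whether this bears on the shares was not tested. Over the 16 pairs of like length without own windows the member share was 58.11% at 37 °C (56.86 to 59.36%) and 57.73% at 17 °C (47.79 to 67.08%).

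The share moved with temperature in the rpl2 pair, which was singled out after its values were seen. AT2G07715 had 291 counts to 21 of ATMG00560 over the 3 libraries at 17 °C, a share of 93.27% (89.93 to 95.56%). At 37 °C it had 1726 to 788, 68.66% (66.81 to 70.44%). The intervals did not overlap. In the 2 libraries numbered 1 at 1 h of the 17-to-27 experiment its share was 53.59% (48.00 to 59.10%), and in the 22 libraries outside these 2 and the 3 at 37 °C it was 91.84% (90.20 to 93.22%). ATMG00560 rose by 5.38 ± 0.58 on the log2 scale at 37 °C, against 2.88 ± 0.30 for AT2G07715. Over the 10 pairs of like length with own windows the share was 81.47% at 17 °C (77.48 to 84.89%) and 52.56% at 37 °C, but without the rpl2 pair it was 47.71% (38.57 to 57.0%) and 43.55%, so that shift rested on this pair. The atp1 pair, AT2G07698 with ATMG01190, stayed between 55.21% at 17 °C and 60.26% at 37 °C, with the nuclear row the longer by a factor of 1.74.

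**Figure D4:**
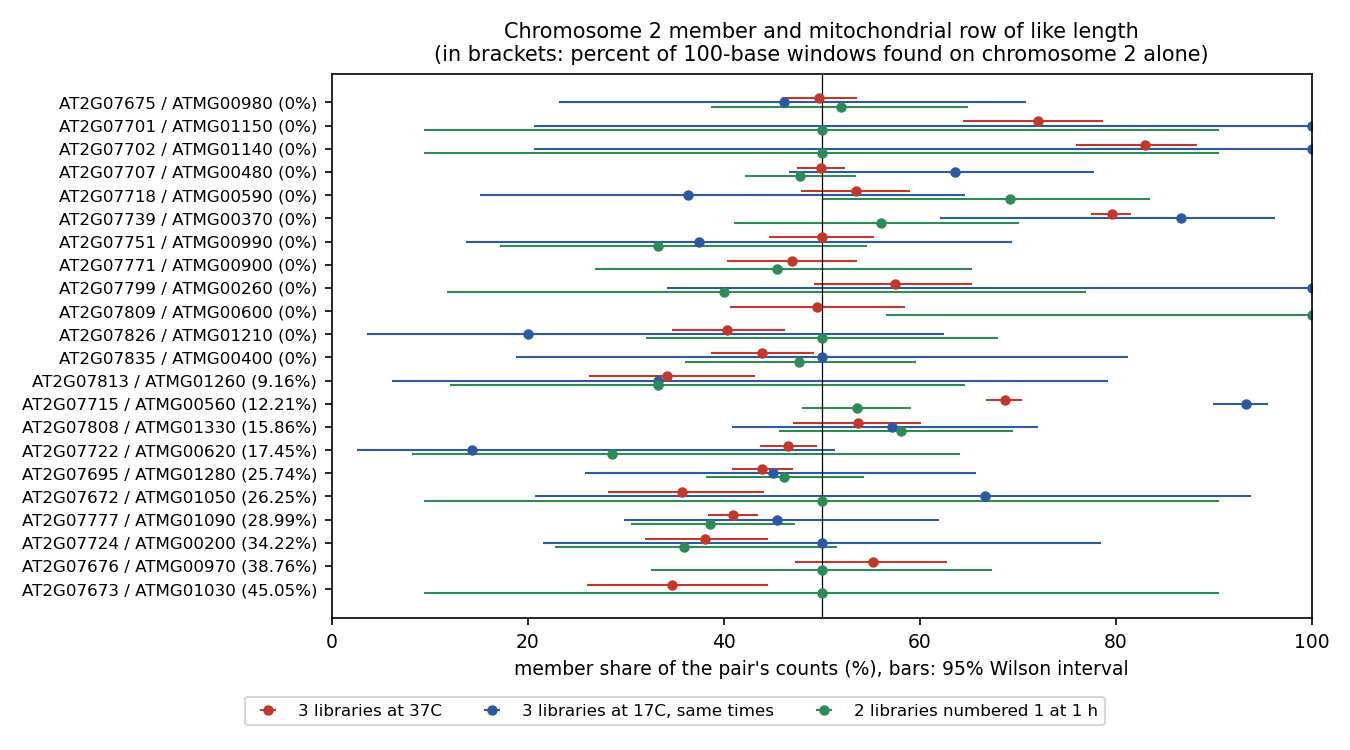
Share of a pair's counts that was assigned to the chromosome 2 member (percent, bars are 95% Wilson intervals) for 22 pairs of like length with at least 100 counts, over the 3 libraries at 37 °C (red), the 3 at 17 °C (blue) and the 2 numbered 1 at 1 h (green). Several identical pairs sit on the line at 50%, and AT2G07715 with ATMG00560 moves from 93.27% at 17 °C to 68.66% at 37 °C.

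A move to 27 °C gave no member that passed the test. In the 17-to-27 experiment the members' sum was 26.50, 32.11 and 505.6 ppm (lowest, median and highest of 6) at 17 °C and 23.09, 31.68 and 310.3 at 27 °C. The ranges overlapped almost wholly. With edgeR over the 3 times 0 of 23 members tested were called, beside 1.51% of all genes, 0 had an unadjusted p under 0.05, and DESeq2 called 0 of 115, with 1 at an unadjusted p under 0.05. At 15 min, 1 h and 4 h taken singly 0 of 42 members were called by edgeR, 0 had an unadjusted p under 0.05 and DESeq2 called 0 of 115, beside 0.223, 0.852 and 0.0331% of all genes. With libraries paired by number within each time 0 of 42 were called as well, but 5 over the 3 times, 11 at 1 h and 2 at 4 h had an unadjusted p under 0.05. In that setting 551, 1652 and 544 of all 21119 genes tested passed even the adjusted threshold. The share of all genes by unadjusted p was not counted. At 1 h, 5 of 47 mitochondrial and 13 of 121 chloroplast rows also had such a p. The atp1 copy AT2G07698 had 1.58, 3.19 and 86.2 CPM at 17 °C and 2.38, 3.96 and 70.0 at 27 °C, a log2 difference of 0.11 ± 0.96 (edgeR, adjusted p = 0.970), an error that could hide a change of several fold.

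Moving seedlings from 22 °C to 27 °C gave members' sums of 56.00, 63.50 and 70.46 ppm at 22 °C and 36.79, 50.43 and 67.15 at 27 °C, again overlapping. Of 9 members tested 0 were called by edgeR, beside 0.31% of all genes, and 3 had an unadjusted p under 0.05, while DESeq2 called 0 of 101. By edgeR 2 of 6 mitochondrial rows and 4 of 61 chloroplast rows also had such a p, and the share of all genes was not counted. All 3 members with such a p were copies already described, named here for that p, and all were lower at 27 °C. AT2G07709 (nad7) had 13.4, 13.5 and 15.5 CPM at 22 °C and 7.13, 9.21 and 9.46 at 27 °C, a log2 difference of -0.72 ± 0.20 (edgeR, adjusted p = 0.168). AT2G07715 (rpl2) had 3.34, 3.47 and 4.65 CPM against 1.74, 1.78 and 1.96, -1.05 ± 0.31 (adjusted p = 0.184). In both copies every 22 °C library was above every 27 °C library. AT2G07711 (nad5) was at -1.09 ± 0.36 (adjusted p = 0.220).

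The effect of 37 °C, each against its own controls, was larger than that of 27 °C in 72 of 100 members tested for the difference itself, beside 6.4% of all genes with a difference in that direction. For mitochondrial rows the count was 56 of 98 and for chloroplast rows 0 of 122. The atp1 copy had a difference of 5.69 in log2 and the nad6 copy one of 7.31. The atp9 copy AT2G07671 missed the threshold, at 3.45 ± 1.59 (edgeR, adjusted p = 0.161). Members that entered this fit through the 37 °C libraries alone had to differ here too.

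Libraries kept at the same temperature also differed in these genes. In the 17-to-27 experiment the members' sum was 32.58, 79.23 and 505.6 ppm (lowest, median, highest of 6) in the libraries numbered 1 and 23.09, 27.05 and 31.64 in those numbered 2, without overlap. The 2 libraries at 1 h numbered 1 stood apart, at 505.6 (17 °C) and 310.3 (27 °C), 19.1- and 13.4-fold above their partners. Mitochondrial and chloroplast rows were high in the same 2 libraries, at 5508 and 5709 ppm and at 5.43 and 6.45% of counts, 31.0- and 35.6-fold and 21.5- and 30.2-fold above their partners. At 37 °C, by contrast, the chloroplast rows were 1.33- to 1.56-fold above 17 °C. The flanking rows of libraries numbered 1 were at 0.526 to 0.936 of those numbered 2. What the numbers stand for (culture, kit or sequencing centre) is not stated, and these cannot be told apart.

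The contrast of numbers was tested with edgeR within the 6 groups. Of 42 members tested 2 were called higher in number 1, beside 0.204% of all genes, with 5 residual degrees of freedom, while DESeq2 called 21 of 115. AT2G07731 (nad6) had 0, 0.663 and 7.05 CPM (lowest, median, highest) in number 1 and 0, 0.0936 and 0.19 in number 2, a log2 difference of 4.28 ± 0.58 (edgeR, adjusted p = 0.0339). AT2G07725, which spans rpl5 and rps14 and is named for passing this test, had 0.132, 1.13 and 7.95 CPM against 0, 0.0992 and 0.17, a difference of 4.24 ± 0.68 (adjusted p = 0.044). The nad6 ranges overlapped at their lower end and so did those of AT2G07725, and both calls were lost when both libraries of any 1 group but 27 °C at 4 h were left out. Number 1 was above number 2 in all 6 groups for 19 of the 42 members tested, beside 6.04% of all tested genes. Over all rows, tested or not, this held for 24 of the 131 members, 27 of the 146 mitochondrial rows and 71 of the 133 chloroplast rows, with no share over all rows of the files computed.

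Across libraries, 9 of 16 relations between a member and its mitochondrial partner passed an adjusted p under 0.05 by Pearson's r and 5 by Spearman's rho (permutation tests). In the 13 libraries of the 17-to-27 experiment log2(CPM + 1) of AT2G07698 and ATMG01190 gave a Pearson r of 0.987 and a Spearman rho of 0.835 (permutation test, adjusted p = 0.00016 and 0.00528 over 16 relations, raw p = 2e-05 and 0.00066), and r was 0.936 without the 2 libraries farthest from the median. For AT2G07707 and ATMG00480 r was 0.984 and rho 0.874 (permutation test, adjusted p = 0.00016 and 0.00368, raw p for r = 1e-05, the smallest that 100000 resamples can give), and r was 0.873 without 2 libraries. The relation held among the 6 libraries numbered 1, with r of 0.995 and 0.985 (exact permutation test, p = 0.00417 and 0.00694). Among the 6 numbered 2 r was -0.221 and 0.576 (exact permutation test, p = 0.676 and 0.235). There AT2G07707 had 1 to 5 counts and ATMG00480 1 to 4, and AT2G07698 spanned only 1.58 to 3.02 CPM. At such low counts and small spread these libraries cannot show whether the relation held. In the 7 libraries of the 22-to-27 experiment AT2G07698 had r = 0.899 and rho = 0.821 (exact permutation test, adjusted p = 0.0215 and 0.0909), and r was 0.389 without the 2 farthest, so the relation there rested on those. AT2G07739 and ATMG00370 had r = 0.878 in the 17-to-27 experiment but rho = 0.369 and r = -0.035 without 2 libraries. All these points share library depth and, for most of their length, sequence. AT2G07707 and ATMG00480 are identical over their 477 bases, and AT2G07739 and ATMG00370 over their 600. Their reads cannot be told apart, so the p-values of such pairs are no test of separate transcripts that move together. By r of log2(CPM + 1) with the members' sum over the 27 libraries, the genes with a mean of at least 10 counts outside both organelles and the insertion that were most like it were AT1G27310 (NTF2A, 0.878), AT4G21090 (MFDX2, 0.876) and AT2G01008 (0.876), a ranking that the 3 libraries at 37 °C weigh on most.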

How the data were processed

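The submitters' processing notes name TopHat, Trimmomatic, Picard, FastQC and TAIR10. The counting program, its use of strand, its treatment of reads with several matches and all versions were not given in the sources read. Each of the 27 deposited files held raw counts per gene as whole numbers, FPKM and TPM. Rescaling the authors' FPKM to a common total gave the deposited TPM (largest difference 5.1e-11). FPKM were used only for that check and TPM only for levels.

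Members were taken by coordinate. They, the gene and marker lists and the comparisons were chosen with earlier results of these data known. Members were matched to the RefSeq mitochondrial genome (TAIR10.1) with blastn 2.17.0, and a window counted as a member's own if its 100 bases were absent from that genome on both strands and occurred once in the nuclear and chloroplast genomes. The files' own mitochondrial sequence was not used here. Partners came from annotation notes (54 members, 52 mitochondrial rows), and roles from mitochondrial genes overlapped.

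The deposited counts passed through filterByExpr and TMM scaling and were tested two-sided with edgeR 4.0.16 (quasi-likelihood, robust, R 4.3.3) on all genes, with Benjamini-Hochberg adjustment and a threshold of 0.05. The scripts were tested on simulated data. DESeq2 1.42.0, DESeq2 size factors, no filter, libraries left out and a replicate block were alternatives. Named members were the 10 with the highest mean TPM, up to 10 more with the smallest adjusted p, and those without a mitochondrial match, and every other member named was chosen after its values were seen. Shares carry 95% Wilson intervals. Same-numbered libraries deviated together within a time (correlations 0.478, 0.590 and 0.538; other times -0.089 to 0.404 over 12 pairs), so a block within each time is given beside the fit without one, which is the one reported. A 0 min library numbered 1 in its title and 2 elsewhere entered no test.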

Additional observations from a re-analysis of the deposited data

Results flagged for a closer look

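The difference between the 37 °C effect and the 27 °C effect, each against its own controls, passed edgeR's test for 72 members of the insertion and 56 mitochondrial rows. Of all genes 6.4% passed in that direction. Members that entered the fit through the 37 °C libraries alone had to differ. Among the named copies of known mitochondrial genes, the log2 difference was 5.69 for AT2G07698 (atp1), 5.43 for AT2G07707 (atp8), 7.31 for AT2G07731 (nad6), 5.53 for AT2G07708 (nad7), 5.70 for AT2G07726 (rps14) and 6.68 for AT2G07783 (ccmFN1). Rows that overlap a tRNA gene had 6.51 (AT2G07739), 9.35 (AT2G07795) and 5.64 (AT2G07774). AT2G07795 had 1 count over the 17 °C libraries of the 17-to-37 experiment, so its value is no measure of size. Others named here were near the floor there too, with 5 counts for AT2G07731 and AT2G07726 and 7 for AT2G07599 and AT2G07783. Rows without a named gene had 5.52 (AT2G07719), 4.62 (AT2G07811), 8.45 (AT2G07677), 5.82 (AT2G07798), 6.78 (AT2G07688), 7.08 (AT2G07787), 7.10 (AT2G07599) and 5.92 (AT2G07674). Of the 100 members tested, those that did not pass include AT2G07671 (atp9), AT2G07680 (ABCC13), AT2G07727 (cob), AT2G07687 (cox3), the atp6 copies AT2G07699 and AT2G07741, AT2G07725 and AT2G07663. The 27 °C effect includes the 2 libraries numbered 1 at 1 h that stood apart, and with both left out the difference passed for 71 members.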

How the results depend on the processing

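No member passed the test for 27 °C against 17 °C under any alternative run, the replicate block and the block within each time included, and none for 27 °C against 22 °C, at 0 called in each case. At 37 °C, 97 to 104 members were called, and 56 without the 1 h libraries, against 100. For the difference of the 37 °C and 27 °C effects, 72 became 83 with DESeq2 and 80 with the replicate block, and leaving out a library gave 48 to 80, the lowest without the 17 °C library numbered 1 at 1 h; without both 1 h libraries numbered 1 (added after seeing the data) it was 71. For mitochondrial rows the same library moved 56 to 24. The contrast of numbers was the least stable: against 2 members, DESeq2 called 21 and no low-count filter 5, and leaving out both libraries of a group gave 0 for 15 min, 1 h and 4 h at 17 °C and for 15 min and 1 h at 27 °C, and 4 for 4 h at 27 °C. The causes were not tested. The member share in pairs with own windows at 17 °C was 47.71% without the AT2G07715 pair, against 81.47% (added after seeing the data). For the summed levels, the mean ratio of 37 °C to 17 °C in TPM was 29.2 for the members, against 25.4 in counts, and 11.6 against 8.32 for mitochondrial rows. No named member changed direction. Over all genes, calls ran from 3 to 1182 (27 °C over 3 times, 315 as reported), 1 to 184 (15 min, 47), 0 to 1652 (1 h, 180), 0 to 544 (4 h, 7), 445 to 4985 (37 °C, 4476), 0 to 405 (22 to 27 °C, 59) and 0 to 908 (numbers, 78). Depth limits single members at 17 °C, where 40 had no count.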
